A study of Drosophila melanogaster with 12 samples.

Results

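Of the study's 12 libraries of Drosophila γ neurons, 6 are compared here, the 3 made at 18 h after puparium formation, when the larval axon is pruned, against the 3 made at 6 h, before pruning. Of the 17050 genes in the deposited table, 6406 (37.57%) reached a value of 50 in 3 or more of these 6 libraries and were tested. Animals of both times were y,w/+ on the first chromosome and UAS-RedStinger/+ on the second, and on the third they carried 71G10 over UAS-HR51 RNAi. Hr51 (unfulfilled) encodes a nuclear receptor, and its RNA was targeted at both times. Animals without the interference were not analysed here. Every difference below is one of time within neurons that carry it. Flies were kept at 25 °C, sexes were taken at random, and 1000 cells per library were sorted from dissociated brains by the red nuclear protein RedStinger, which 71G10 switches on. Each time has 3 replicates with the letters A, B and C. The labels do not say whether they came from separate dissections, so p-values measure the spread between these libraries, which may be technical in part.

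The γ neurons are the earliest born Kenyon cells, the intrinsic neurons of the mushroom body. Early in the pupa the steroid ecdysone, acting through its receptor EcR and the factor Sox14, makes them prune their larval axons and dendrites. They later regrow an adult lobe, a step for which Hr51 is needed, and place the surface protein Dpr12 opposite DIP-δ on dopaminergic neurons.

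The answer depended on the replicate letter. Replicates B and C gave 741 genes that differed between 18 and 6 h, and for most of them the sign was the opposite in replicate A. In B and C, the transcription factor genes Kr-h1, Hr46, Hr4, Sox14 and vri and all 8 called glycolysis genes fell to lower levels at 18 h. Higher at 18 h were EcR, Eip93F and Blimp-1, all but 2 of the called genes of the beat, DIP and dpr families, and all called genes of voltage-gated channels and oxidative phosphorylation. Receptors of transmitters changed in both directions. With replicate A in the fit, 0 of the 6406 genes were called, that is, had an adjusted p under 0.05 by limma.

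Values are reads normalised to 10000000 mapped reads per library. The 6 libraries held 1597241 to 3752666 mapped reads, and the value of 50 that admitted a gene stood for 7.99 to 18.8 reads. Of the genes tested, 4970 reached 50 in all 6 libraries, 17 passed only through the 18 h libraries and 19 only through the 6 h libraries, so that these few had to differ. Others passed only through B and C of either time with A of the other, among them DIP-theta, beat-Vc, CG1850, RYa-R and Drep3. For such genes the opposite pattern in A came with the filter. Just inside the threshold lay CG11000, CG16749 and CG32163, whose highest 3 values ended at 50.1, and just outside it Aats-leu, CG10927 and CG11035, at 49.5. Neuronal and Kenyon cell markers were high in every library: elav lay at 15322 to 20359 at 18 h and 12285 to 16455 at 6 h, and dac at 17854 to 23675 at 18 h and 18444 to 21406 at 6 h. Kenyon cell markers as a whole made up 3.79% to 4.3% of the signal at 18 h and 3.21% to 3.55% at 6 h. Of 21 tested, 4 were called higher in B and C (19%, against 6.42% of all genes) and 2 lower (9.52%, against 5.15%). The defining markers of hemocytes (Hml, NimC1) and muscle (Mhc) had 0 reads in all 6, as did ninaE of photoreceptors. Another photoreceptor marker, chp, had 0, 33.8 and 0 in A, B and C at 18 h, against 51.7, 34.6 and 0 at 6 h. The photoreceptor marker gl was seen only in 6 h replicate B (2.665). The glial gene repo had 0 reads at 18 h and 51.7, 2.665 and 6.261 at 6 h in A, B and C, and the fat body gene Fbp1 was seen only in 6 h replicate A (38.8). Glial markers as a whole made up 0.0267% to 0.0458% of the signal at 18 h and 0.0359% to 0.0603% at 6 h, hemocyte markers 0.000732% to 0.00506% at 18 h and 0.00331% to 0.00534% at 6 h. Other marker lists moved with the times in B and C. Cuticle genes, of which 94 of 135 were at 0 in all 6 libraries, made up 0.0187% to 0.0201% at 18 h, against 0.0154%, 0.0916% and 0.0711% in A, B and C at 6 h. The Osiris gene Osi7 was at 0 in all 18 h libraries and at 0, 1442 and 2116 in A, B and C at 6 h. The cuticle protein gene TwdlT was likewise at 0 at 18 h and at 0, 719 and 883 at 6 h. Both failed the filter, and both were chosen after their values were seen. Osi24, another Osiris gene, had 1362, 1118 and 1335 in A, B and C at 18 h, against 1129, 2460 and 1753 at 6 h. Of the 3 cuticle genes that were tested, 1 was called higher at 18 h in B and C and 0 lower, beside 6.42% and 5.15% of all genes. Muscle markers made up 0.0284% to 0.0483% at 18 h, against 0.0287%, 0.0125% and 0.00883% in A, B and C at 6 h, and their signal came almost wholly from bt, which encodes a giant titin-like protein. Photoreceptor markers made up 0.0286% to 0.0361% at 18 h, against 0.0372%, 0.0223% and 0.0177% at 6 h. The part of these cell types in the results was not tested. Sexes were taken at random, and roX1, an RNA of male cells, had 9857, 8346 and 6841 in A, B and C at 18 h, against 8210.1, 3797 and 4282 at 6 h. The related roX2 had 542, 42.2 and 267 in A, B and C at 18 h, against 121, 53.3 and 288 at 6 h. For roX1 the 6 h values of B and C were the lowest of the 6, and the part of the mix of sexes in the results was not tested. In such pooled libraries, fewer cells of a type and less RNA per cell cannot be told apart.

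Replicate A was compared with B and C first, because the other results turn on it. Among the genes called in B and C (741 of 6406, 11.6%), the difference of 18 h less 6 h had the same sign in replicate A for 155 (20.9%) and the opposite sign for 586. Over all genes tested the share with the same sign was 41.6%. The 411 genes that rose in B and C had a median log2 difference of −0.40 in A and 1.69 in B and C, and the 330 that fell had 0.61 in A and −1.65 in B and C. Across the 6406 genes, which share libraries and are not replicates, the change of A correlated at −0.20 with that of B and at −0.17 with that of C, while B and C correlated at 0.42 with each other. The difference between the change of A and that of B and C passed the test for 499 genes (7.79%), with a more positive change in A for 253 (3.95%) and a more negative one for 246 (3.84%). This is an interaction fitted with limma on all 12 libraries in which the lone A library of each time is assumed to vary like B and C.

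**Figure D1:**
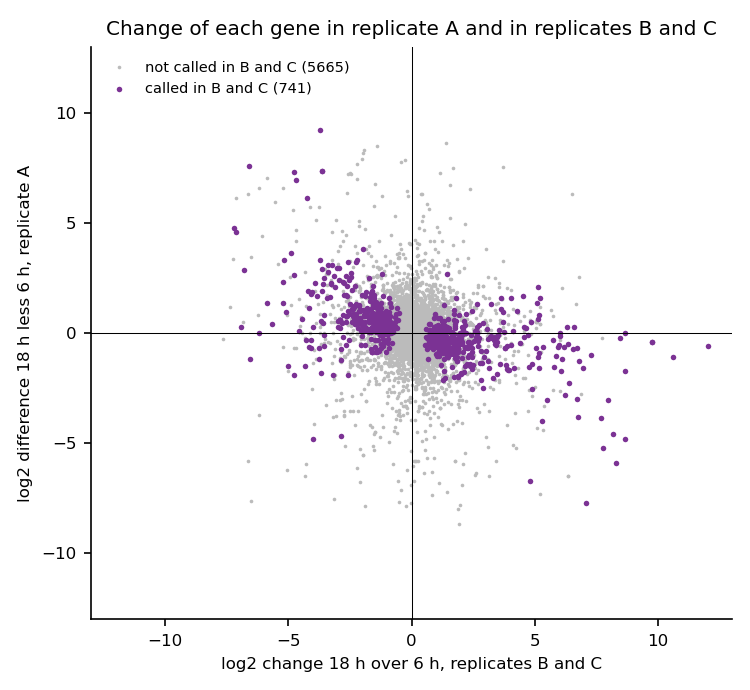
Each point is 1 of the 6406 genes: log2 change of 18 h over 6 h in replicates B and C (x axis) against the log2 difference in replicate A (y axis), both on log2(normalised read + 1), with the 741 genes called in B and C in purple. Most purple points lie in the upper left and lower right, where the sign in A is opposite (586 of 741).

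Replicate A stood apart from B and C in more genes at 6 h than at 18 h. Set against B and C of its own time, 6 h replicate A differed from B and C of 6 h in 616 genes (9.62%), 294 higher (4.59%) and 322 lower (5.03%) in A. In contrasts with the other times, added after the data were seen, it differed from B and C of 12, 18 and 24 h in 115 (1.8%), 3 (0.0468%) and 23 (0.359%). Across genes its log2 values correlated at 0.747, 0.845, 0.884 and 0.887 with the mean of B and C of 6, 12, 18 and 24 h. The 18 h library of replicate A differed from B and C of 6, 12, 18 and 24 h in 293 (4.57%), 2 (0.0312%), 7 (0.109%) and 44 (0.687%) genes. Its log2 values correlated across genes at 0.797, 0.866, 0.847 and 0.851 with the means of B and C of 6, 12, 18 and 24 h, so that 12 h was nearest. Replicate A of 12 h, a time outside this comparison, was nearest to B and C of 6 h. It differed from B and C of 6, 12, 18 and 24 h in 5 (0.0781%), 113 (1.76%), 332 (5.18%) and 340 (5.31%) genes, and its correlations with them across genes were 0.906, 0.866, 0.812 and 0.818. At 12 h Kr-h1 was at 2628, 80.3 and 151 in A, B and C, and beat-Ic at 79.9, 5993 and 4868. Whether an A library carries the time of another was not tested. All libraries are kept under the time their labels give. Every value of A below, at 6 h and at 18 h, rests on its label, as do the calls of the pooled fit.

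**Figure D2:**
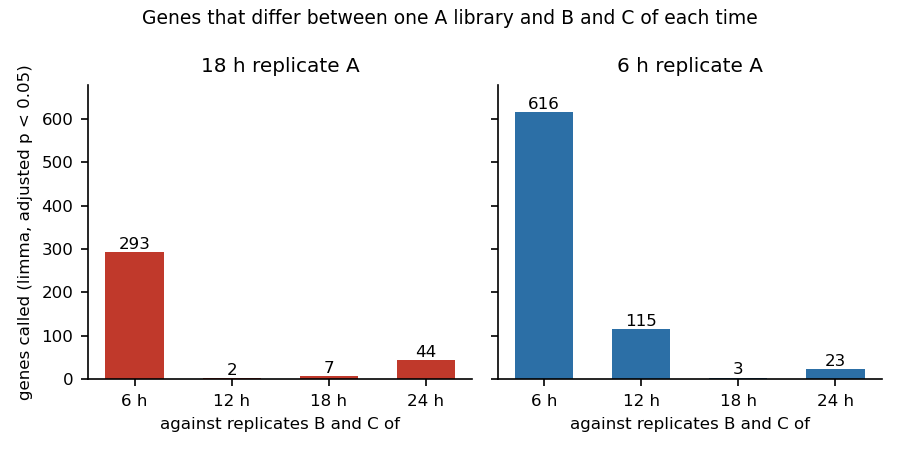
Number of genes called (limma, adjusted p under 0.05, of 6406) when the 18 h library of replicate A (left, red) or its 6 h library (right, blue) was set against replicates B and C of each time. For 6 h replicate A the bar is highest against its own time (616) and lowest against 18 h (3).

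Single genes show the same picture. Kr-h1, a zinc-finger gene induced by juvenile hormone, had 265, 21.1 and 74.2 normalised reads in A, B and C at 18 h, against 8.615, 6675 and 5491 at 6 h. The 6 h value of A lay below every 18 h value, and those of B and C lay far above them. For beat-Ic, an immunoglobulin-domain gene of the Beaten path family, the values were 4883, 7076 and 9239.5 in A, B and C at 18 h, against 7249.5, 2.665 and 0 at 6 h. Here A was high at both times, and B and C were high at 18 h alone. In the contrasts of A with B and C the lone A library has no spread of its own, and SE and p rest on the spread of B and C. Blimp-1, a transcriptional repressor of the ecdysone cascade, was higher in A than in B and C at 6 h by 4.44 ± 0.32 (log2, SE; limma adjusted p = 3.38e-07). At that time Ndae1, an anion exchanger gene, was lower in A, with a log2 difference of −4.26 ± 0.38 (adjusted p = 2.46e-06), and so was vri, a bZIP repressor gene, with −3.13 ± 0.33 (adjusted p = 1.2e-05).

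The 18 h library of replicate A correlated more with B and C of 12 h (0.866) than with those of 18 h (0.847). Still, at 18 h replicate A lay closer to B and C of its own time than at 6 h. The 7 genes called there, named after their values were seen, were CG10713, X11Lbeta and unc-13-4A, higher in A (0.0468%), and ssp3, CG43902, CG5151 and fwd, lower in A (0.0624%). CG10713 was at 5165 in A and 882 and 1192 in B and C, a log2 difference of 2.33, and at 5555 and 4582 in B and C of 12 h. X11Lbeta was at 42851 in A, 16240 and 17336 in B and C, and 39021 and 39553 in B and C of 12 h. In ssp3, CG43902, CG5151 and fwd, 18 h replicate A also lay below B and C of 12 h. The number of 7 moved with the settings: it was 100 with no filter on low values, 0 when only the libraries of 6 and 18 h were fitted, and 2 to 8 when single libraries were left out.

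With A, B and C pooled as labelled, 18 h against 6 h gave 0 calls by limma, with 585 genes at an unadjusted p under 0.05. On the reads recovered from the values edgeR also called 0 genes and DESeq2 called 42 (9 higher, 33 lower). Without 6 h replicate A limma called 547 genes (322 higher, 225 lower), without 6 h replicate B or 18 h replicate B 1 gene each, and without any other library 0. In all 3 letters the 18 and 6 h libraries did not overlap for 713 genes (11.1%), 473 higher (7.38%) and 240 lower (3.75%) at 18 h.

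The genes below are therefore described in replicates B and C, from a fit of the 8 libraries of these letters at the 4 times, and the values of A stand beside them. The libraries of a time numbered only 2 each, and over all genes their values did not overlap for 51.2% (31% higher, 20.2% lower), so that no overlap alone says little. Of the 741 calls, 312 (42.1%) held in each of the 8 fits that left out 1 library, 159 of them higher and 153 lower. Among the single genes named below, those called only with all libraries are marked as such. The counts of called members of gene lists also hold such calls, which are not marked there 1 by 1. Scaling mattered for the balance of directions: with the authors' scaling 411 genes were higher (6.42%) and 330 lower (5.15%), and the median of all genes was 0.16 on the log2 scale. With median-ratio scaling the median was 0.02 and 305 genes were higher and 389 lower.

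The largest increases in B and C included genes of surface proteins, receptors and channels. Reads of beat-Ic, given above, over B and C numbered 3545 at 18 h against 1, a ratio of 4320 with a 95% counting interval of 775 to 171000. Lkr, the receptor gene for the neuropeptide leucokinin, had 1058, 1667 and 1464 in A, B and C at 18 h, against 2231, 0 and 0 at 6 h. With 691 reads in B and C of 18 h against 0 it was at least 281-fold higher, the bound being set by 3 reads over both libraries. Ca-alpha1T, a gene for a T-type calcium channel, had 1661, 5603 and 5896 in A, B and C at 18 h, against 5427, 5.33 and 31.3 at 6 h (log2 change 8.65 ± 0.52, SE; adjusted p = 5.21e-09). In each of these genes 6 h replicate A lay within or above the range of the 18 h libraries. Teh1, an auxiliary subunit gene of the sodium channel, had 924, 1996 and 1672 in A, B and C at 18 h, against 1292, 69.3 and 6.261 at 6 h (log2 change 6.34 ± 0.72, SE; adjusted p = 9.42e-06). Rbp9, an RNA-binding protein gene of the ELAV family, had 1271, 3388 and 2869 in A, B and C at 18 h, against 4139.5, 24.0 and 87.7 at 6 h (log2 change 6.05 ± 0.46, SE; adjusted p = 8.81e-08). Both were low in B and C of 6 h and high in the other libraries. Hs3st-B, a heparan sulfate sulfotransferase gene, had 396 reads over B and C of 18 h against 3, a ratio of 161 with a 95% counting interval of 54.6 to 783. The proline dehydrogenase gene slgA rose by 5.32 ± 0.90 (adjusted p = 0.000542).

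For other genes among the largest increases the call ended when a single library was left out. The calls for Ddr, dpr14, Gld2, Lim1 and msd5 ended without 18 h replicate C (limma adjusted p = 0.0836, 0.0825, 0.0836, 0.0929 and 0.175) and 4 of them, all but dpr14, also without 18 h replicate B (0.052, 0.0904, 0.135 and 0.164 for Ddr, Gld2, Lim1 and msd5). Without 6 h replicate C, Lim1 was at 0.238, and without 24 h replicates B or C at 0.053 and 0.0528. Without 6 h replicate B, msd5 was at 0.368, without 12 h replicates B or C at 0.0645 and 0.0602, and without 24 h replicates B or C at 0.0694 and 0.0794. DESeq2 did not call dpr14, Gld2, Lim1 or msd5 (adjusted p = 0.162, 0.377, 0.152 and 0.128), nor did edgeR call msd5 (0.198). Without 18 h replicate B or C the log2 changes of these 5 genes stayed at 5.06 to 6.68. One 6 h library of each was at 0, that of C in Ddr, dpr14, Gld2 and Lim1 and that of B in msd5. Without it the log2 changes were 2.36, 2.25, 1.72, 3.43 and 1.63 for Ddr, dpr14, Gld2, Lim1 and msd5. CG13245 and CG43816 lie inside beat-Ic on the same strand, and their values followed it, so their reads cannot be told from those of beat-Ic. CG1850 had 448 reads over B and C of 18 h against 2, a ratio of 273 with a 95% counting interval of 75.1 to 2260.

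**Figure D3:**
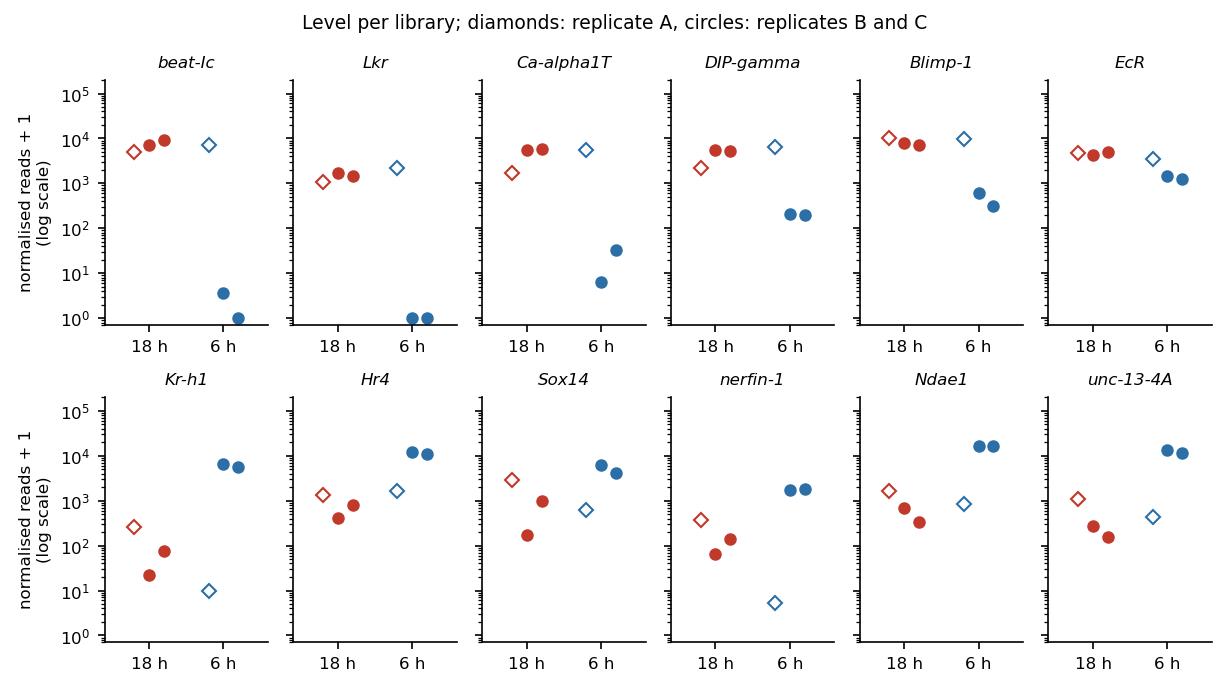
Normalised reads + 1 on a log axis in each library, for 6 genes that rose (upper row) and 6 that fell (lower row) in replicates B and C, with 18 h (red) left of 6 h (blue), replicate A as open diamonds and B and C as filled circles. In each panel the 6 h diamond lies nearer to the 18 h points than to the 6 h circles; for beat-Ic it is at 7250 beside 6 h circles at 2.665 and 0.

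The largest decreases included genes of transcription factors, transport and signalling. Kr-h1, with the values given above, fell by 7.21 ± 0.75 on the log2 scale in B and C (SE; limma adjusted p = 2.87e-06), and CG45075, which overlaps it on the same strand, cannot be told from it. CG31324, now called Cipc and known as a circadian clock repressor gene in mammals, had 624, 80.2 and 237 in A, B and C at 18 h, against 86.2, 13913 and 17236 at 6 h (−6.80 ± 0.53; adjusted p = 1.07e-07). The anion exchanger gene Ndae1 had 1657, 671 and 341 in A, B and C at 18 h, against 861, 16188 and 16779 at 6 h (−5.10 ± 0.31; adjusted p = 6e-09). The gene unc-13-4A, of a family known for vesicle priming, had 1097, 274 and 158 in A, B and C at 18 h, against 426, 13183 and 11464 at 6 h (−5.88 ± 0.33; adjusted p = 2.78e-09). In these 3 genes the 18 h and 6 h libraries of B and C lay far apart, and 6 h replicate A lay within the range of the 18 h libraries. The zinc-finger gene nerfin-1, which keeps neurons differentiated, had 377, 63.3 and 138 in A, B and C at 18 h, against 4.307, 1732 and 1816 at 6 h (−4.23 ± 0.76; adjusted p = 0.000971). The adenylyl cyclase gene Ac13E had 382, 38.0 and 124 in A, B and C at 18 h, against 60.3, 1636 and 2204 at 6 h (−4.77 ± 0.60; adjusted p = 2.54e-05). The cyclic nucleotide-gated channel gene CngA had 390.3, 249 and 554 in A, B and C at 18 h, against 482, 6681 and 6060.4 at 6 h (−4.09 ± 0.57; adjusted p = 7.95e-05).

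Among the other large decreases, calls ended without 6 h replicate B for the neuropeptide receptor genes AstA-R1 and RYa-R and for mnd, Drep3 and CG8216 (limma adjusted p = 0.151, 0.169, 0.169, 0.153 and 0.0591). Without 6 h replicate C they ended for AstA-R1, RYa-R, mnd, CG8216 and cu (0.126, 0.216, 0.0813, 0.0679 and 0.0691). AstA-R1, RYa-R and mnd were also lost without 18 h replicate C (0.0941, 0.0936 and 0.239). Without 18 h replicate B the same happened to AstA-R1 and RYa-R (0.0657 and 0.0997), without 12 h replicate B to RYa-R (0.0511), and without 24 h replicate C (0.052) or with edgeR (0.0531) to mnd. The log2 changes stayed near those of the full fit for AstA-R1 (−4.82 to −4.53, against −4.68) and RYa-R (−4.999 to −4.56, against −4.78) when 1 of the 4 libraries of 6 and 18 h was left out. In mnd and CG8216, each at 0 in 18 h replicate C, they were −2.02 and −3.46 without that library, against −5.22 and −6.55 in the full fit. Without 6 h replicate B they were −4.73, −6.62 and −3.51 for mnd, CG8216 and Drep3 (−4.10 for Drep3 in the full fit). Without 6 h replicate C they were −5.72, −6.48 and −3.38 for mnd, CG8216 and cu (−4.01 for cu in the full fit).

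Coordinates are those of the deposited table (build dm6), with 1 added to each start so that bases are counted from 1, and cover the whole gene. The gene beat-Ic spans bases 16000291 to 16041703 of chromosome 2L (plus strand), and Lkr spans bases 5512421 to 5529341 of chromosome 3L (minus strand). Ca-alpha1T spans bases 6104085 to 6192483 of chromosome X (minus strand). Kr-h1 spans bases 6082603 to 6096498 of chromosome 2L (plus strand), and Ndae1 spans bases 7223328 to 7249343 of chromosome 2L (minus strand). The libraries read 3′ ends, so reads are not spread over these regions. Among the genes described, Imp overlaps CR45204, Ten-m overlaps CR45962 and usp overlaps Actn on the same strand, as do Gld2 with SKIP and CG5151 with CG5157 and CG32152. CG43902, elav, Ac13E, Hr4, br, unc79, Eno, Pgk, Dcp-1, usp and mus308 overlap tested genes on the other strand. Counting by strand is not stated, so reads of such neighbours cannot be told apart.

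Counts of called members of gene lists are to be read against the 6.42% higher and 5.15% lower among all genes. Genes of the ecdysone response moved in both directions. Of 24 tested, 3 rose and 7 fell in B and C, with a median log2 change of −0.75 against 0.16 over all genes; in A, 5 of the 10 called had the same sign. The nuclear receptor gene Hr4 had 1357, 418 and 791 in A, B and C at 18 h, against 1667, 11933 and 10819 at 6 h (log2 change −4.30 ± 0.36, SE; adjusted p = 2.12e-07). Hr46, also called Hr3, had 34.7, 59.1 and 103.9 in A, B and C at 18 h, against 99.1, 2539.5 and 2561 at 6 h (−5.01 ± 0.63; adjusted p = 2.55e-05), and shares its strand and position with CG12912. For both, A at 6 h lay well below B and C. The bZIP repressor gene vri had 3686, 1473 and 1622 in A, B and C at 18 h, against 1129, 10688 and 9103 at 6 h (−2.67 ± 0.27; adjusted p = 2.14e-06). Against these, EcR had 4671, 4249 and 4892 in A, B and C at 18 h, against 3558, 1431 and 1265 at 6 h (log2 change 1.76 ± 0.22, SE; adjusted p = 3.2e-05). All its 18 h values lay above all its 6 h values, A included, though A at 6 h was above B and C by 1.40 ± 0.27 (adjusted p = 0.0028). Blimp-1 had 10308, 7962 and 7286 in A, B and C at 18 h, against 9657, 618 and 319 at 6 h (4.10 ± 0.26; adjusted p = 1.13e-08). Eip93F, a late factor gene that opens adult programmes, had 18019, 13641 and 16525 in A, B and C at 18 h, against 10321, 3779 and 4214 at 6 h (1.91 ± 0.19; adjusted p = 1.73e-06). In Eip93F, too, every 18 h value exceeded every 6 h value. The early gene Eip75B (0.19 ± 0.17; adjusted p = 0.546), the EcR partner usp (−0.54 ± 0.29; 0.29) and ftz-f1 (−2.39 ± 1.91; 0.507, with 23 and 28 reads at 18 and 6 h) did not pass. The gene br fell by 1.20 ± 0.34 (0.0269), a call that ended without 6 h replicate B (0.195) or 18 h replicate C (0.191).

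Of the 22 genes known to act in γ axon pruning or related pruning, all tested, 3 rose (13.6%, against 6.42% of all genes) and 3 fell (13.6%, against 5.15%), and the median log2 change was −0.03 in B and C. Sox14, the HMG-box factor downstream of EcR, had 2897, 173 and 969 in A, B and C at 18 h, against 620.3, 6228 and 4019 at 6 h (log2 change −3.61 ± 0.53, SE; adjusted p = 0.000122). The B and C libraries of 18 h lay below those of 6 h, and 6 h replicate A lay between the 18 h values of B and C. The headcase gene hdc, needed for dendrite pruning in sensory neurons, had 46347, 28743 and 27981 in A, B and C at 18 h, against 19879, 89219 and 80789 at 6 h (−1.58 ± 0.15; adjusted p = 1.46e-06). Mical, an actin-oxidising enzyme gene downstream of Sox14, had 1353, 1135 and 1123 in A, B and C at 18 h, against 887, 2049 and 2448 at 6 h (−0.99 ± 0.30; adjusted p = 0.0433). Its call was not stable: it ended without 6 h replicates B or C (0.0769 and 0.203), 18 h replicates B or C (0.13 and 0.162) and 24 h replicates B or C (0.0605 and 0.0611). The immunoglobulin gene plum had 2099, 3785 and 2829 in A, B and C at 18 h, against 2976, 1532 and 1252 at 6 h (1.24 ± 0.27; adjusted p = 0.00538), and its call ended without 18 h replicate B (0.0771). The TGF-β receptor gene babo (−0.47 ± 0.29; 0.365) and the adhesion gene Fas2 (0.09 ± 0.18; 0.838) did not pass. Fas2, the marker by which γ axons are usually stained, was at 11106, 11966 and 10303 in A, B and C at 18 h, against 9554, 10987 and 9948 at 6 h.

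Hr51 itself had 5373, 4325 and 2661 in A, B and C at 18 h, against 4144, 5044 and 5666 at 6 h. The values of B and C at 18 h were below those of 6 h and those of A were not (−0.66 ± 0.25 in B and C; adjusted p = 0.112), so the difference did not pass. It passed with median-ratio scaling (0.0454), by DESeq2 (0.0218) and without 18 h replicate B (0.0391). With no control genotype here, the values say nothing of how far the interference lowered it.

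Transcription factors and RNA-binding proteins listed under temporal identity were called in 10 of 15 cases, 4 higher and 6 lower, with 4 of the 10 of the same sign in A. Some of them mark when a Kenyon cell was born. The list also holds Kr-h1, and Eip93F, which counts in the ecdysone list too. The zinc-finger gene ab had 1106, 1869 and 1657 in A, B and C at 18 h, against 1081, 157 and 106 at 6 h (log2 change 3.76 ± 0.38, SE; adjusted p = 2.25e-06). The RNA-binding protein gene Imp, which marks early-born neurons, had 17585, 8189.9 and 8572 in A, B and C at 18 h, against 7465, 27439 and 18156 at 6 h (−1.41 ± 0.20; adjusted p = 8.29e-05). In Imp the highest value at 18 h was that of A, just under the lower of the B and C values of 6 h. The zinc-finger gene chinmo, another early-identity gene, had 6783, 5658 and 5109 in A, B and C at 18 h, against 5328, 4956 and 3844 at 6 h (0.30 ± 0.22; adjusted p = 0.454).

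Among genes of surface proteins that pair between neurons, most of those called were higher at 18 h in B and C. The DIP genes encode immunoglobulin proteins that bind Dpr partners: of 7 tested, 3 rose and 1 fell, with a median log2 change of 3.03 in B and C and −1.56 in A. DIP-delta had 885, 1696 and 1474 in A, B and C at 18 h, against 2826, 40.0 and 275 at 6 h (log2 change 3.89 ± 0.60, SE; adjusted p = 0.000219). DIP-gamma had 2159.7, 5540.1 and 5302 in A, B and C at 18 h, against 6358, 208 and 194 at 6 h (4.75 ± 0.29; adjusted p = 5.7e-09). DIP-theta had 17.3, 481 and 203 in A, B and C at 18 h, against 1098, 0 and 0 at 6 h. In B and C, DIP-theta had 155 reads at 18 h against 0, at least 62.9-fold higher. In DIP-delta and DIP-gamma the highest of the 6 libraries was 6 h replicate A. DIP-theta passed the filter only through B and C of 18 h and A of 6 h, so its opposite pattern in A came with the filter. The counts and medians of the DIP genes include it. The gene that fell, CG31814, is now called DIP-kappa and is described below with the genes in which A followed B and C.

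Of the 21 dpr genes, all tested, 7 rose and 1 fell, with a median of 0.94 in B and C and 0.02 in A. The gene dpr6 had 4228, 4823 and 5104 in A, B and C at 18 h, against 4127, 1063 and 582 at 6 h (log2 change 2.655 ± 0.27, SE; adjusted p = 2.23e-06). The gene dpr17 had 1219, 1751 and 2404 in A, B and C at 18 h, against 1421, 522 and 501 at 6 h (2.002 ± 0.35; adjusted p = 0.00066). For dpr13 the reads in B and C were 133 at 18 h against 1, a ratio of 162 with a 95% counting interval of 28.6 to 6450. The gene that fell was dpr8, with 14467, 13865 and 12059 in A, B and C at 18 h, against 10825, 29123 and 25826 at 6 h (−1.08 ± 0.18; adjusted p = 0.000492). The gene dpr12, which encodes the partner of DIP-δ named above, had 477, 916 and 589 in A, B and C at 18 h, against 711, 381 and 651 at 6 h. These groups overlapped, and the change of 0.56 ± 0.41 did not pass (adjusted p = 0.471).

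Of 20 beat and side genes, whose products also pair with one another, 6 rose and 0 fell in B and C, with medians of 0.73 in B and C and −0.33 in A. These counts and medians include beat-Vc, which passed the filter only through B and C of 18 h and A of 6 h. Its opposite pattern in A came with the filter. Apart from beat-Ic, beat-Ib had 1566, 3135 and 2760.0 in A, B and C at 18 h, against 2473, 109 and 6.261 at 6 h (log2 change 6.70 ± 0.77, SE; adjusted p = 9.68e-06). The gene beat-Va had 854, 553 and 1083 in A, B and C at 18 h, against 853, 2.665 and 0 at 6 h. In reads, beat-Va had 350 at 18 h against 1, a ratio of 426 with a 95% counting interval of 76 to 16900. For beat-Vc 101 reads stood against 0, at least 41-fold higher, and this call ended without 18 h replicate C (adjusted p = 0.0741).

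Other adhesion genes split. Of 33 tested, 7 rose and 5 fell. Dscam2, a homophilic immunoglobulin gene that sets axons apart, had 7086, 8211 and 7464 in A, B and C at 18 h, against 9299.9, 2265 and 1083 at 6 h (log2 change 2.32 ± 0.27, SE; adjusted p = 1.07e-05), and the teneurin gene Ten-m rose by 2.09 ± 0.30 (adjusted p = 9.46e-05). Fas1, a fasciclin adhesion gene, had 13804, 5949 and 9348 in A, B and C at 18 h, against 4273, 25669.8 and 30346 at 6 h (−1.90 ± 0.21; adjusted p = 6.47e-06), and the neuronal cadherin gene CadN fell by 1.28 ± 0.19 (0.000154). Among 27 axon guidance genes 2 rose (7.41%, near the 6.42% of all genes) and 4 fell (14.8%, against 5.15%). The repellent gene sli rose by 2.29 ± 0.31 (5.19e-05) and the cadherin gene stan by 1.41 ± 0.22 (0.000263). The gene comm, which sorts the receptor of that repellent, fell by 2.42 ± 0.48 (0.00238), and the receptor-like gene otk by 1.42 ± 0.26 (0.0012).

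**Figure D4:**
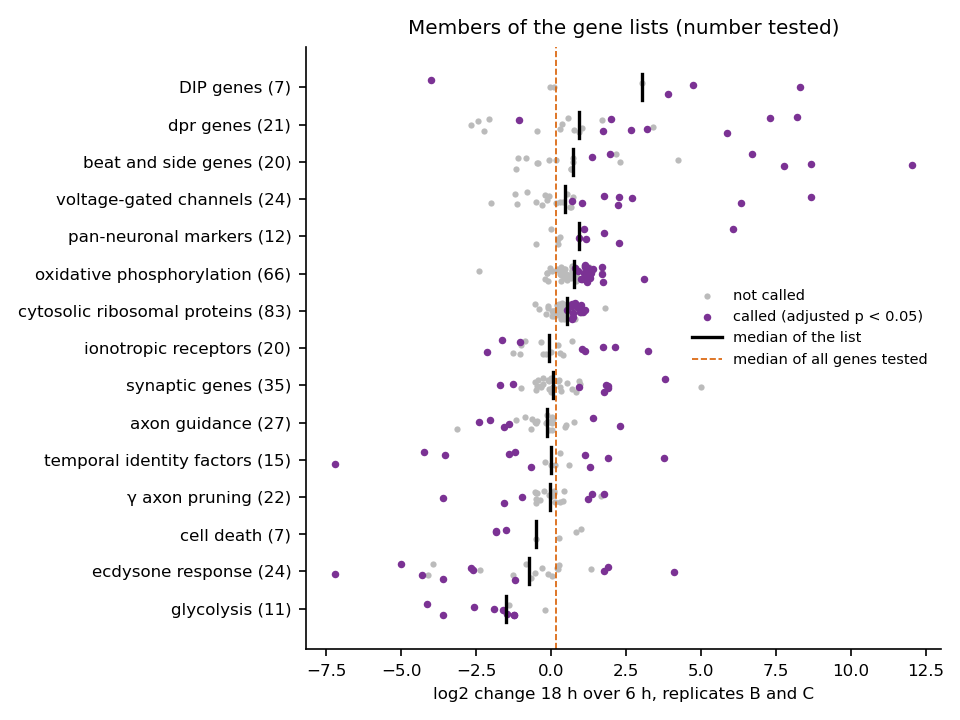
Log2 change of 18 h over 6 h in replicates B and C for the tested members of 15 gene lists (number tested in brackets), with called members in purple, others in grey, the median of each list as a black bar and the median of all 6406 genes (0.16) as a dashed line. DIP genes have the highest median (3.03) and glycolysis genes the lowest (−1.50).

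Of 24 voltage-gated channel genes 8 rose and 0 fell, with medians of 0.46 in B and C and 0.30 in A. The sodium channel gene para had 3920.4, 4743 and 2735 in A, B and C at 18 h, against 5742, 1114 and 1008 at 6 h (log2 change 1.76 ± 0.26, SE; adjusted p = 0.000134). The gene unc79, of the sodium leak channel complex, had 3253, 4890.3 and 2938 in A, B and C at 18 h, against 4919, 658 and 507 at 6 h (2.71 ± 0.28; adjusted p = 2.25e-06). In both, A at 6 h was higher than A at 18 h. Of 12 pan-neuronal markers 6 rose and 0 fell, with medians of 0.92 in B and C and −0.16 in A, among them the sodium pump subunit gene nrv3 at 3400.0, 3519 and 3398 in A, B and C at 18 h, against 4463, 826 and 614 at 6 h (2.28 ± 0.26; adjusted p = 9.55e-06) and cpo (1.08 ± 0.17; adjusted p = 0.000199). These markers made up 1.39% to 1.51% of the signal at 18 h and 1.11% to 1.47% at 6 h.

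Transmitter receptors went both ways. Of 20 ionotropic receptor genes 5 rose and 3 fell, and with median-ratio scaling 4 rose and 4 fell. The GABA receptor gene Rdl had 11111, 8523 and 9517 in A, B and C at 18 h, against 7301, 3707 and 1959.6 at 6 h (log2 change 1.74 ± 0.24, SE; adjusted p = 7.95e-05), and the glutamate-gated chloride channel gene GluClalpha rose by 1.02 ± 0.20 (adjusted p = 0.0021). The acetylcholine receptor subunit gene nAChRalpha1 had 1696, 1228 and 1143 in A, B and C at 18 h, against 1452, 6686 and 4169.7 at 6 h (−2.16 ± 0.28; adjusted p = 3.99e-05), and nAChRalpha6 fell by 1.03 ± 0.19 (0.00132). Of 14 monoamine and muscarinic receptor genes 2 rose and 2 fell. DopEcR, a receptor of dopamine and ecdysone at the membrane, had 742, 1101 and 1118 in A, B and C at 18 h, against 1202, 18.7 and 56.3 at 6 h (5.05 ± 0.51; adjusted p = 2.25e-06). Octbeta1R, an octopamine receptor gene, had 165, 181 and 74.2 in A, B and C at 18 h, against 379, 1780.1 and 1434 at 6 h (−3.77 ± 0.66; adjusted p = 0.000755), and its 18 h libraries lay below all 6 h libraries in every letter. The dopamine receptor gene Dop1R2 fell by 2.49 ± 0.45 (0.00111), and the call of mAChR-A, which was higher, ended without 18 h replicate C (0.15) or 6 h replicate B (0.0537).

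Of 35 synaptic genes 6 rose (17.1%, against 6.42% of all genes) and 2 fell (5.71%, near the 5.15% of all genes), with a median of 0.05 in B and C. The scaffold gene dlg1 had 4289, 3262 and 4229 in A, B and C at 18 h, against 2804, 11991 and 12346 at 6 h (log2 change −1.71 ± 0.21, SE; adjusted p = 1.52e-05). The stoned locus, whose products stnA and stnB act in vesicle recycling and come from a shared transcript, had 1843, 3333 and 2458 in A, B and C at 18 h, against 3058, 781 and 758 at 6 h (1.89 ± 0.27; adjusted p = 8.29e-05) and counts as a single signal, since the values of both were identical.

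Energy metabolism divided by pathway in B and C. Of 11 glycolysis genes 8 fell and 0 rose, with a median of −1.50 in B and C and 0.23 in A, and 5 of the 8 also had a lower value at 18 h in A. Gapdh2 had 3629.8, 2072 and 3077 in A, B and C at 18 h, against 3019.6, 7352 and 12014 at 6 h (log2 change −1.90 ± 0.27, SE; adjusted p = 8.69e-05). Tpi had 651, 127 and 1054 in A, B and C at 18 h, against 474, 4064 and 4808 at 6 h (−3.59 ± 0.63; adjusted p = 0.000735). Pfk had 43.4, 16.9 and 49.5 in A, B and C at 18 h, against 68.9, 656 and 432 at 6 h (−4.15 ± 0.86; adjusted p = 0.00324). In these 3 the values of B and C fell. The 6 h library of A lay within the range of the 18 h libraries in Gapdh2 and Tpi, and above it in Pfk but below B and C of 6 h. Pgk had 655, 1114 and 1024 in A, B and C at 18 h, against 1004, 2889 and 3112 at 6 h (−1.49 ± 0.30; adjusted p = 0.00252). In Eno, with 4479.8, 5464 and 5748 in A, B and C at 18 h, against 6315, 12559 and 14143 at 6 h (−1.25 ± 0.19; adjusted p = 0.000229), all 18 h libraries lay below all 6 h libraries, but by little in A. Of 66 nuclear genes of oxidative phosphorylation 20 rose and 0 fell, 8 of them in each leave-one-out fit, with medians of 0.77 in B and C and −0.48 in A, and 19 of the 20 had the opposite sign in A. ATPsynC, a subunit gene of the ATP synthase rotor, had 23388, 28819 and 28639 in A, B and C at 18 h, against 36730.0, 8764 and 8922 at 6 h (log2 change 1.70 ± 0.17, SE; adjusted p = 1.73e-06). The gene blw, its alpha subunit gene, had 9896, 15561 and 15536 in A, B and C at 18 h, against 16829, 4594 and 4796 at 6 h (1.73 ± 0.18; adjusted p = 2.3e-06). Cyt-c-p, the cytochrome c gene, had 685, 1582 and 1004 in A, B and C at 18 h, against 1633, 112 and 194 at 6 h (3.09 ± 0.44; adjusted p = 0.0001). In all 3 the highest of the 6 libraries was 6 h replicate A. With median-ratio scaling 16 of the 66 rose.

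Of 83 cytosolic ribosomal protein genes 14 rose and 0 fell, by 0.53 to 1.12, with medians of 0.53 in B and C and −0.39 in A. This depended on the scaling, since 4 rose with median-ratio scaling, and 3 of the 14 calls held in each leave-one-out fit. RpS30 had 9159, 10869 and 11723 in A, B and C at 18 h, against 13353, 4202 and 6417 at 6 h (log2 change 1.12 ± 0.21, SE; adjusted p = 0.0017). RpS24 had 10061, 13523 and 12677 in A, B and C at 18 h, against 15769.7, 5657 and 7669 at 6 h (0.99 ± 0.19; adjusted p = 0.00217). Among growth regulators of the insulin and TOR pathway, 0 of 13 rose and 2 fell, beside 6.42% and 5.15% of all genes, so that so short a list says little. The kinase gene S6k had 3157, 2308 and 1741 in A, B and C at 18 h, against 2873, 7699 and 6136 at 6 h (−1.78 ± 0.24; adjusted p = 6.84e-05), and Pdk1 fell by 1.23 ± 0.24 (0.00175).

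Among 26 microtubule genes 5 rose and 2 fell. The tubulin genes betaTub56D, with 21866, 28278 and 25369 in A, B and C at 18 h, against 32780.1, 7799.8 and 7769.6 at 6 h (log2 change 1.78 ± 0.17, SE; adjusted p = 1.34e-06), and alphaTub84B (1.32 ± 0.21; adjusted p = 0.000271) rose, as did the dynein heavy chain gene Dhc64C (1.86 ± 0.35; adjusted p = 0.0016). The cell death list had 7 members tested, and 3 fell, the caspase genes Dronc, Drice and Dcp-1 by 1.83 ± 0.51, 1.85 ± 0.56 and 1.50 ± 0.31 (adjusted p = 0.0254, 0.04 and 0.0034). All 3 calls ended without 6 h replicate C (0.146, 0.176 and 0.0615). Those of Dronc and Drice also ended without 6 h replicate B (0.0732 and 0.119), that of Dronc without 18 h replicate C (0.267) and those of Drice without 18 h replicate B (0.314) or 12 h replicate B (0.0507). Of 33 proteasome genes limma called 0, with 3 at an unadjusted p under 0.05, 0 called by edgeR and 1 by DESeq2, and of 21 autophagy genes it called 0, with 5, 1 and 2. Their medians were −0.08 and −0.28.

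In a minority of genes replicate A moved with B and C. Of the 741 called genes, 111 (14.98%) had no overlap between all 18 h and all 6 h libraries, 73 higher and 38 lower. All 741 had no overlap in B and C alone, so the like base is the 3278 tested genes (51.2%) for which this held. Of these 3278, 713 had no overlap in all 3 letters (11.1% of the 6406 tested). That is a larger share than among the called genes. The next 6 were chosen after their values were seen. CG42747 had 1609, 987 and 1187 in A, B and C at 18 h, against 529.8, 40.0 and 182 at 6 h (log2 change 3.65 ± 0.61, SE; adjusted p = 0.000495). CG3792, which overlaps CG8891 on the other strand, had 564, 397 and 277 in A, B and C at 18 h, against 177, 5.33 and 31.3 at 6 h (4.54 ± 0.91; adjusted p = 0.00261). The neuroligin gene Nlg3, for a postsynaptic adhesion protein, had 2112, 1895 and 1667 in A, B and C at 18 h, against 874, 879 and 576 at 6 h (1.32 ± 0.30; adjusted p = 0.00748), a call that ended without 6 h replicate C (0.0717) or 18 h replicate B (0.0621). The DNA polymerase theta gene mus308 had 199, 249 and 247 in A, B and C at 18 h, against 64.6, 5.33 and 6.261 at 6 h, and in B and C 109 reads stood against 3, a ratio of 44.3 with a 95% counting interval of 14.8 to 218.

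Lower at 18 h in every letter was CG31814 (DIP-kappa), with 8.673, 42.2 and 183 in A, B and C at 18 h, against 276, 1209.8 and 1709 at 6 h (−4.01 ± 0.72; adjusted p = 0.000916). So was the glycolytic aldolase gene Ald, with 178, 173 and 539 in A, B and C at 18 h, against 668, 2468 and 1359 at 6 h (−2.58 ± 0.55; adjusted p = 0.0041). The call for Ald ended without 6 h replicate B (0.0674) or 18 h replicate B (0.0724). In CG31814 the 6 h value of A lay below those of B and C, as it did in Ald, and still above every 18 h value.

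**Figure D5:**
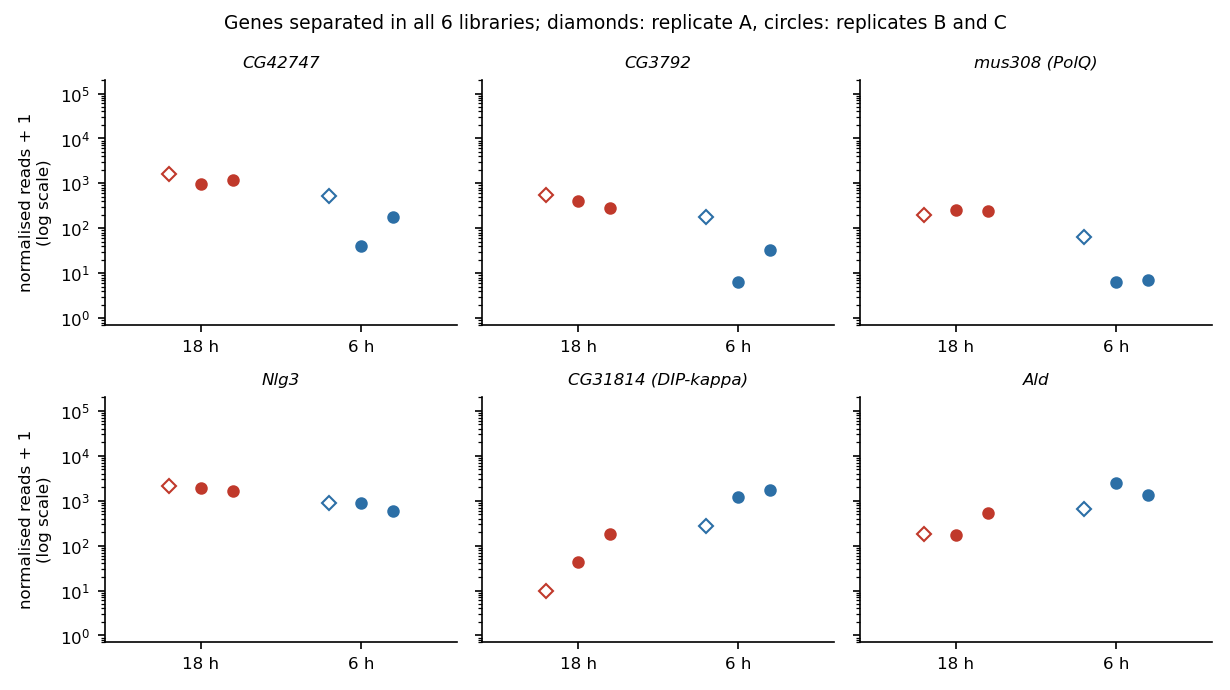
Normalised reads + 1 on a log axis in each library for 6 genes in which all 18 h libraries (red, left) lie apart from all 6 h libraries (blue, right), with replicate A as open diamonds. CG42747, CG3792, mus308 and Nlg3 are higher and CG31814 and Ald lower at 18 h in all 3 letters.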

How the data were processed

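Libraries were made by MARS-seq, a 3′-end method with early barcoding, from sorted cells, per the labels' protocols. Tools named in the submitters' processing notes, with no role or order, are HOMER, bcl2fastq and HISAT 0.1.5. The authors deposited a signal per gene and library, reads normalised to 10000000 mapped reads per the file headers. Each value above 0 was a whole multiple of the value of 1 read (100% within 0.02 reads), which gave the recovered reads used for edgeR 4.0.16 and DESeq2 1.42.0. The handling of strand, of reads shared by genes and of molecular identifiers is not stated, so overlapping genes are uncertain and intervals cover counting error only. The authors' table held 0 mitochondrial genes, and 98.83% of its symbols matched the BDGP6 annotation.

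Genes that reached 50 in 3 or more of the 6 libraries were fitted on log2(value + 1) by limma 3.58.1 under R 4.3.3, using its intensity trend. P-values were adjusted by Benjamini-Hochberg over 6406 genes and called under 0.05. Changes on this scale may understate low genes, and where a library was at 0 they may overstate them. In B and C, Gld2, at 0 in 6 h replicate C, changed by 5.74 on the log2 scale, against 2.55 by DESeq2. The fit of A, B and C used all 12 libraries with 1 mean per time, that of B and C the 8 libraries of these letters, and the contrasts of A all 12 with A and B with C apart. A change against 0 reads is a bound against 3 reads over both libraries, and one against 1 to 3 reads a ratio with its 95% counting interval. Methods were tested on simulated data.

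The members, gene lists and comparisons were chosen with earlier results of these data known, including that replicate A stands apart. Named in B and C were, of the called genes whose log2 change reached 1, whose mean reached 200 and whose libraries did not overlap, the 14 largest per direction with a symbol and the 3 largest with a CG or CR number (577 genes met the criteria, 194 with such a number), up to 4 members per list by p and a set of genes always given. The letters did not pair the libraries of both times (correlation of deviations −0.188, −0.0794 and −0.000216 for A, B and C). Alternatives were the pseudocount, filter, scaling, libraries fitted, letter as a block, count tests and each library left out. Other lists and the remaining calls were computed and are not described.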

Additional observations from a re-analysis of the deposited data

Results flagged for a closer look

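The change of 18 h over 6 h differed between replicate A and replicates B and C in 499 of 6406 genes (limma adjusted p under 0.05, a test of the difference itself), 253 with a more positive and 246 with a more negative change in A. The number was 298 when only the libraries of 6 and 18 h gave the spread. The lone A library of each time has no replicate of its own.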

How the results depend on the processing

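Over the 8 libraries of B and C, the 741 calls became 467 to 681 when each library was left out, the fewest without 18 h replicate C, and 421 of those 467 were among the 741. With the replicate block, the letter as a block, 781 were called, 733 of them among the 741. The count was 597 with no filter, 549 with only the libraries of 6 and 18 h, 673 by edgeR and 881 by DESeq2. Over all 12 libraries the 0 calls of limma became 42 by DESeq2, 0 to 547 when single libraries were left out, 502 with only 6 and 18 h and without 6 h replicate A, and 680 without 6 h and 12 h replicate A together, an alternative added after the data were seen. The contrast of the changes gave 298 calls with only 6 and 18 h. That of A at 18 h gave 100 with no filter, 0 with only 6 and 18 h and 2 to 8 with libraries left out. The share of called genes with the same sign in A was 19.06% to 24.86% with libraries left out. Of 132 single genes followed in B and C, 6 results in 3 genes turned direction: Fas2 was at −0.054 with median-ratio scaling, −0.032 by edgeR, −0.057 by DESeq2 and −0.021 to 0.19, Eip75B at −0.012 to 0.40 and ftz-f1 at −5.81 to 1.03 with libraries left out. Over all letters br was at −0.0099 with median-ratio scaling, −0.47 by edgeR, −0.50 by DESeq2, −0.89 without 6 h replicate A in the other fits, and −0.89 to 0.73 with single libraries left out. Likewise dpr12 was at −0.10 to 0.39, and ftz-f1 at 0.029 with a pseudocount of 5, 0.66 by edgeR and −1.85 to 1.74. The cause of these turns was not tested. Depth limits the low genes, since the threshold stood for 7.99 to 18.8 reads.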
